A study of Mus musculus with 16 samples.

Results

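Transcripts that the ovary makes chiefly in its oocytes were followed through the mRNA of mouse granulosa cells (mGCs), which enclose and nourish the oocyte inside the ovarian follicle. The 10 genes described, Gdf9, Bmp15, Zp1, Zp2, Zp3, Ooep, Nlrp5, Figla, Oosp1 and Kit, were taken by name from the 57010 genes counted, and all 10 had reads. Freshly isolated mGCs came from 5 sham-operated mice of the outbred ICR stock (Con-mGC) and 5 mice of the endometriosis model (EM-mGC), in which donor endometrium was sutured to the bowel mesentery. The mice were 6 weeks old when bought. Recipient mice kept their ovaries, received estradiol for 14 days and, after a washout of 2 weeks, underwent ovulation induction with the gonadotropins PMSG or HCG at day 30. In a separate experiment, mGCs of 6 mice of the endometriosis model were kept for 24 h in DMEM/F12 medium that held fetal bovine serum at 5%, without (PBS, 3 libraries) or with 100 nM 14,15-EET (EET, 3 libraries), a lipid mediator made from arachidonic acid. The sources used here differ on whether EET or PBS was present during these 24 h or was added afterwards for a further 24 h, so the total time in culture is uncertain. With 6 mice behind 3 pairs of libraries, cells of several mice may have been pooled, and the sources used here do not say so. The methods read here do not describe how oocytes were removed from the isolates.

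The oocyte signals to the granulosa cells around it through secreted factors of the TGF-beta superfamily, of which GDF9 and BMP15 are the main ones, and it builds the zona pellucida, a glycoprotein coat that sperm must bind and cross. A group of maternal proteins that gather beneath its membrane, the subcortical maternal complex, is stored for the early embryo. Granulosa cells answer the oocyte's factors through receptor kinases and SMAD proteins, and they feed back through KIT ligand, whose receptor KIT lies on the oocyte. Theca and interstitial cells, mast cells and melanocytes are also known to carry KIT, so Kit is the least oocyte-specific gene of the 10.

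Between 14462398 and 15999234 reads were counted on genes in the Con-mGC libraries, between 14229123 and 15072324 in EM-mGC, between 21384686 and 27728777 in PBS and between 23823566 and 29482826 in EET. All 8 granulosa cell markers examined had reads in every fresh library, and Inha, an inhibin subunit, was the most abundant of them. Cyp19a1, the aromatase that makes estradiol, was at 0 reads in PBS-1 and EET-2, and Fshr, the receptor of follicle-stimulating hormone, averaged 4.49 CPM (reads per 1000000 counted, scaled by edgeR's TMM factors) in PBS and 5.14 CPM in EET against 116 CPM in Con-mGC. Of the fresh libraries, EM-mGC-3 stood apart with 21.8% of its counts on mitochondrial transcripts, against 6.76% to 11.1% in the other 9. Con-mGC-1 had reads on 22071 genes, where the other fresh libraries had reads on 25080 to 27642. Results that rest on a single library are therefore also given without it.

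The oocyte genes were plainly present in every fresh library. Together the 10 genes took 0.0404% to 0.0895% of the counts of the Con-mGC libraries and 0.0131% to 0.0770% of those of EM-mGC. The lowest share had a 95% Wilson interval of 0.0125% to 0.0137% (EM-mGC-1) and the highest one of 0.0880% to 0.0909% (Con-mGC-5). Their summed level was 827, 389, 596, 452 and 854 CPM in Con-mGC-1 to Con-mGC-5. In EM-mGC-1 to EM-mGC-5 it was 131, 763, 887, 279 and 528 CPM. The groups overlapped, and EM-mGC-1 was the lowest of the 10 libraries. EM-mGC-3 was the highest, but without TMM factors it was at 745 CPM and Con-mGC-5 was the highest, at 895 CPM. In bulk RNA, fewer oocytes and less RNA per oocyte cannot be told apart.

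Per kilobase of exon, on the scale of CPM per kb averaged over the 10 fresh libraries, Gdf9 was the most abundant, with 80.4 ± 40.2 (SD, n = 10). Zp3 followed with 43.6 ± 19.2 and lay below Gdf9 in all 10 libraries. Bmp15 (31.3 ± 15.7), Oosp1 (31.2 ± 19.3) and Zp2 (29.3 ± 13.1) formed the next step. Their order was not fixed, since Bmp15 lay above Oosp1 in 5 of 10 libraries and Oosp1 above Zp2 in 3 of 10. Zp1 (17.1 ± 8.64) and Ooep (15.4 ± 7.95) also changed places, with Zp1 higher in 7 of 10. Nlrp5 (8.59 ± 3.66) lay below Ooep in every library, Kit (3.94 ± 0.991) below Nlrp5 in 9 of 10, and Figla (0.591 ± 0.343) was the lowest of the 10 genes in each.

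Gdf9 (ENSMUSG00000018238, chr11:53321850-53328731, plus strand, in the coordinates of the count tables, for which the submitters' processing notes list GRCm39) encodes the growth factor that oocytes secrete from early follicle growth on. It was at 249, 107, 167, 125 and 238 CPM in Con-mGC-1 to Con-mGC-5. It was at 32.9, 214, 283, 73.3 and 144 CPM in EM-mGC-1 to EM-mGC-5. EM-mGC-1 and EM-mGC-4 lay under every Con-mGC library. EM-mGC-3 lay above them all with TMM factors, but without them it was at 237 CPM, against 249 CPM in the highest Con-mGC library. Bmp15 (ENSMUSG00000023279, chrX:6226161-6232775, minus strand), its close relative and partner, was at 134, 66.3, 92.6, 79.7 and 145 CPM in the Con-mGC libraries. In the EM-mGC libraries it was at 17.4, 126, 168, 39.4 and 87.1 CPM. EM-mGC-1 was the lowest of the 10 libraries for both genes. EM-mGC-3 was the highest for Bmp15 too, but without TMM factors it was at 141 CPM, against 152 CPM in Con-mGC-5. Gdf9 starts 192 bp from Uqcrq, a respiratory chain gene on the opposite strand at 106 CPM in fresh libraries, and whether the counting used strand is not given in the sources used here.

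The zona pellucida genes Zp1, Zp2 and Zp3 encode the coat proteins. Zp3 (ENSMUSG00000004948, chr5:136008953-136017478, plus strand), a main structural protein of the coat, was at 74.8, 39.5, 65.6, 41.5 and 88.8 CPM in Con-mGC-1 to Con-mGC-5. It was at 11.7, 83.6, 78.6, 32.2 and 60.9 CPM in EM-mGC-1 to EM-mGC-5. Zp2 (ENSMUSG00000030911, chr7:119725995-119744514), which takes part in sperm binding, ranged from 56.1 to 132 CPM in Con-mGC and from 17.5 to 115 CPM in EM-mGC. Zp1 (ENSMUSG00000024734, chr19:10891651-10897996), which links the filaments of the coat, ranged from 22.9 to 58.7 CPM and from 8.84 to 50.0 CPM. For all 3 the lowest library was EM-mGC-1.

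Figla (ENSMUSG00000030001, chr6:85993153-85997978) encodes a basic helix-loop-helix factor of oocytes, which is known to bind E-box elements in zona gene promoters. Its own mRNA was scarce, with 9, 6, 10, 7 and 9 reads in Con-mGC-1 to Con-mGC-5 and 2, 11, 13, 2 and 4 reads in EM-mGC-1 to EM-mGC-5. Such counts leave room for little more than presence. The 250 bases before the RefSeq start of 3 members are shown. These 3 are a zona gene, an oocyte growth factor and the gene richest in the motif. Capitals mark the E-box letters CANNTG, which read the same on both strands. The sequences are given 5′ to 3′ on the gene's strand from RefSeq, build GRCm38.p6, at chr5:135979855-135980104 (plus strand) for Zp3, chrX:6320725-6320974 (minus strand) for Bmp15 and chr19:11691052-11691301 (minus strand) for Oosp1.
Zp3: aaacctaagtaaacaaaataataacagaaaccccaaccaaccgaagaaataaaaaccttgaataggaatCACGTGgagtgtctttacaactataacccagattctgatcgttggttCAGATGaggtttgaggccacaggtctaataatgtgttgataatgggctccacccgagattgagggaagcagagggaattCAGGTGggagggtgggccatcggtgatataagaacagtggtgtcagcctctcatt
Bmp15: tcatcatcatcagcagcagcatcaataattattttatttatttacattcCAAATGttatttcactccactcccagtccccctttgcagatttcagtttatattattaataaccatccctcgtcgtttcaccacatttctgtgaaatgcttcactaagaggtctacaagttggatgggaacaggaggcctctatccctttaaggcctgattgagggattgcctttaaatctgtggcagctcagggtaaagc
Oosp1: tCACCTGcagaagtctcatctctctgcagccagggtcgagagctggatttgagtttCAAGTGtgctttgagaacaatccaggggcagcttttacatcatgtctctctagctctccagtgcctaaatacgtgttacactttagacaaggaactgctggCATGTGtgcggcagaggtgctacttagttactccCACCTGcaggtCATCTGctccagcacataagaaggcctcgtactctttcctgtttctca
The Zp3 window holds 3 matches, whose first bases lie 181, 134 and 55 bases before the start, the Bmp15 window 1 match and the Oosp1 window 5. Promoters of 7 of the 10 genes were in the table used. Of the 7 genes, 6 (85.7%) held the letters in this window in at least 1 promoter, Kit being the one without. Of all 32851 promoters in the table, each counted singly, 66.2% held them, so a match is common and is given as a description only. The share of genes and the share of promoters differ in unit, since a gene can have several promoters.

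Ooep (ENSMUSG00000032346, chr9:78283391-78286007) and Nlrp5 (ENSMUSG00000015721, chr7:23085314-23141347) encode proteins of the subcortical maternal complex. Ooep was at 57.2, 19.8, 37.5, 25.2 and 42.1 CPM in Con-mGC-1 to Con-mGC-5. In EM-mGC-1 to EM-mGC-5 it was at 4.87, 47.1, 51.1, 14.3 and 30.1 CPM. EM-mGC-1 was again the lowest library, and EM-mGC-2 and EM-mGC-3 were the 2 highest of their group. Nlrp5 ranged from 33.6 to 72.4 CPM in Con-mGC and from 9.47 to 57.1 CPM in EM-mGC. Oosp1 (ENSMUSG00000041857, chr19:11644824-11668514), an oocyte-secreted protein, was at 45.8, 18.7, 32.6, 21.3 and 31.5 CPM in Con-mGC-1 to Con-mGC-5. In EM-mGC-1 to EM-mGC-5 it was at 5.64, 39.2, 71.3, 13.2 and 23.9 CPM. Its highest library was EM-mGC-3, which exceeded every Con-mGC library also without TMM factors (59.9 CPM against at most 45.6 CPM).

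Kit (ENSMUSG00000005672, chr5:75735576-75817382), the receptor of KIT ligand, varied least. It was at 41.4, 24.9, 41.3, 37.1 and 48.7 CPM in Con-mGC-1 to Con-mGC-5. It was at 22.8, 35.6, 43.3, 25.7 and 30.2 CPM in EM-mGC-1 to EM-mGC-5. EM-mGC-1 was the lowest here too, and Kit differed 2.14-fold between the lowest and the highest library, or 1.96-fold without EM-mGC-1.

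**Figure D1:**
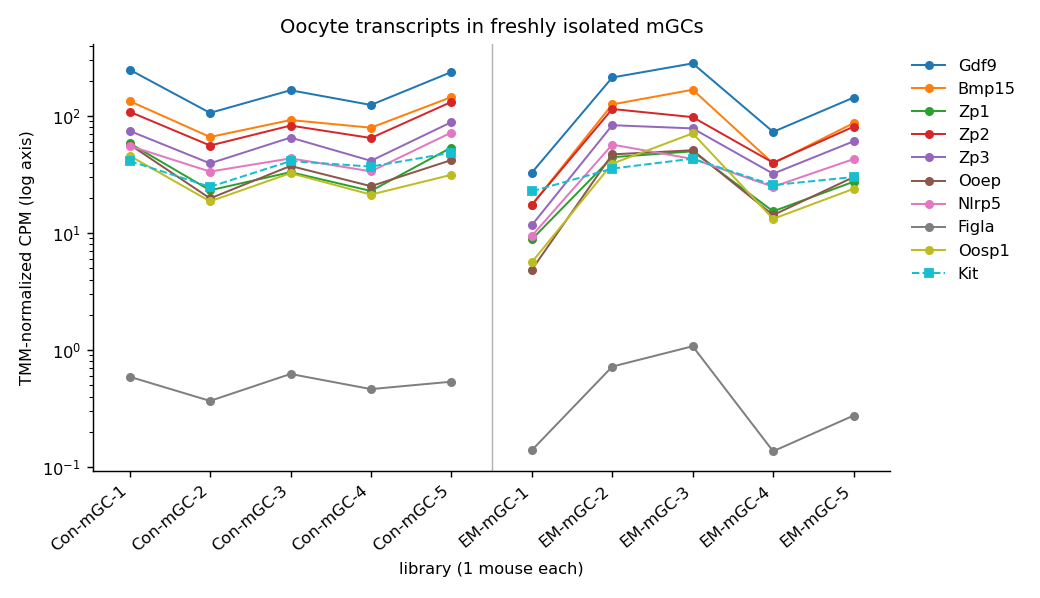
Level of each of the 10 genes in the 10 fresh libraries, in TMM-normalized CPM on a log axis, with Con-mGC on the left, EM-mGC on the right and lines joining the values of a gene within a group. The curves run nearly parallel, with a low at EM-mGC-1 for 9 genes, and Kit (dashed) is the flattest.

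These transcripts differed widely between libraries, and EM-mGC-1 set much of that spread. For the 8 genes other than Kit and Figla, the highest fresh library exceeded the lowest by 6.63-fold (Zp1) to 12.6-fold (Oosp1). The median over all 17229 tested genes was 2.0-fold, and 10.0% of them reached 6.63-fold. Without EM-mGC-1 the 8 genes differed by 2.76-fold (Zp3) to 5.38-fold (Oosp1), with a median over all tested genes of 1.97-fold, and 30.6% of these reached 2.76-fold. The biological coefficient of variation that edgeR estimated for these 8 genes was 0.416 to 0.556, against a median of 0.214 over all tested genes, and 12.2% of all tested genes were at or above 0.416. Without EM-mGC-1 it was 0.282 to 0.424 for the 8 genes, against a median of 0.220, and 34.3% of all tested genes were at or above 0.282. For Kit it was 0.228, and 0.215 without EM-mGC-1. EM-mGC-1 was the lowest library for 9 of the 10 genes, and EM-mGC-4 was among the 2 lowest for 9. Con-mGC-5 and EM-mGC-3 were each the highest for 4 genes and Con-mGC-1 for 2, but without TMM factors Con-mGC-5 was the highest for 6 and EM-mGC-3 for 2.

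Of the marker lists of other cells, that of granulosa cells had the same 2 lowest libraries. Summed over its 8 genes, it was at 4912 CPM in EM-mGC-4, the lowest of the 10, and at 8451 CPM in EM-mGC-1, the second lowest. The remaining 8 libraries lay between 9021 CPM and 16743 CPM, the highest being EM-mGC-2. The other lists did not have their lowest value in EM-mGC-1. Theca and interstitial markers, led by Col1a1, were at 677 CPM in EM-mGC-1 and between 582 and 968 CPM over the 10 libraries. Leukocyte markers, led by Csf1r, were at 133 CPM in EM-mGC-1 against a range of 84.3 to 184 CPM, and endothelial markers, led by Kdr, at 177 CPM against 99.1 to 203 CPM. Oviduct and surface epithelium markers, led by Upk3b, were at 249 CPM in EM-mGC-1 and between 164 and 364 CPM over the 10 libraries. No gene of these 5 lists was at 0 in a fresh library. The part of these cell types in the spread of the oocyte transcripts was not tested.

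The oocyte genes kept steady proportions to one another while their level moved. For each Gdf9 read there were 0.582 Bmp15 reads on average, with a coefficient of variation of 0.0669 over the 10 libraries and a range of 0.530 to 0.639, although the Bmp15 level itself had a coefficient of variation of 0.501. The ratio to Gdf9 had a coefficient of variation of 0.128 for Ooep, 0.129 for Zp1, 0.131 for Zp2, 0.139 for Zp3, 0.166 for Oosp1 and 0.195 for Nlrp5. Figla, with its few reads, reached 0.287. Kit did not keep a fixed proportion. Its reads per Gdf9 read had a coefficient of variation of 0.589, with 0.153 in EM-mGC-3 and 0.693 in EM-mGC-1, the library with the least Gdf9. Without EM-mGC-1 that coefficient was 0.291, with a highest value of 0.351, still above those of the other genes, Figla at 0.282 being the nearest.

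EM-mGC-3, the library with the high mitochondrial share, also had uneven proportions. It had the fewest reads per Gdf9 read of the 10 libraries for Zp1 (0.177), Zp2 (0.347), Zp3 (0.278), Nlrp5 (0.152) and Kit, and the most for Oosp1 (0.252). For Nlrp5 the other 9 libraries lay between 0.223 and 0.340. Without EM-mGC-3 the coefficient of variation of the ratio fell to 0.0723 for Zp2, 0.120 for Nlrp5 and 0.102 for Oosp1. Its Bmp15 ratio, 0.595, lay within the range of the others. EM-mGC-1 held other extremes, with the fewest reads per Gdf9 read for Bmp15 (0.530) and Ooep (0.148). It had the most for Zp1 (0.269), Figla (0.00424) and Kit (0.693). Without EM-mGC-1 the coefficient of variation fell to 0.0946 for Zp1 and 0.0966 for Ooep. The part of the mitochondrial share in these ratios was not tested.

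**Figure D2:**
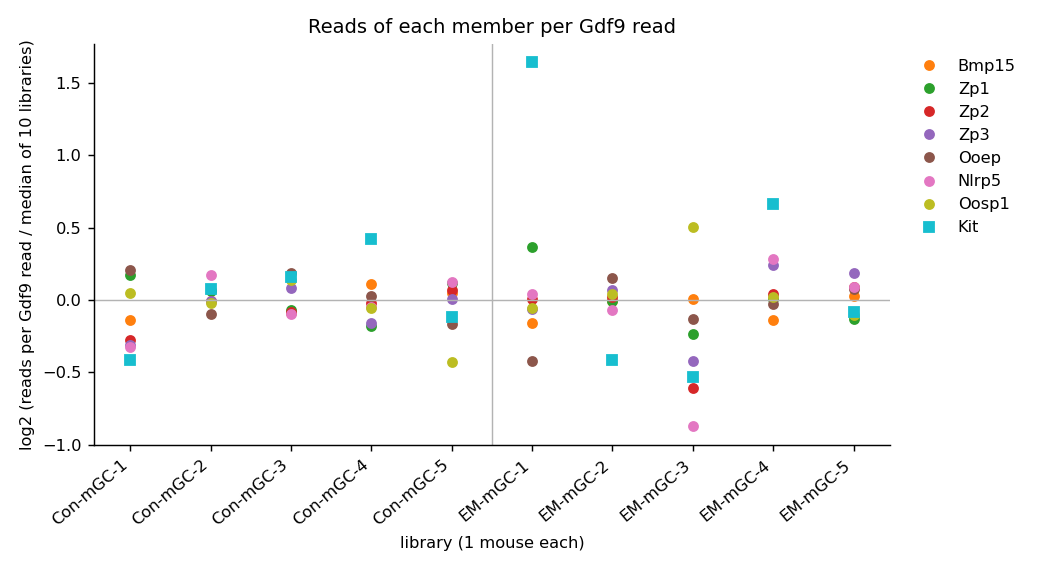
Reads of each gene per Gdf9 read in the 10 fresh libraries, as the log2 ratio to that gene's median over the libraries (Figla is left out for its low counts). Bmp15 stays close to 0 throughout, Kit is far above 0 in EM-mGC-1, and EM-mGC-3 has Nlrp5, Zp2 and Zp3 low and Oosp1 high.

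The comparison of EM-mGC with Con-mGC asked whether the oocyte transcripts changed with the endometriosis model, and no change passed the test. Of the 10 genes, 9 passed the expression filter (all but Figla), and 0 of them were called at an adjusted p of 0.05 by edgeR's quasi-likelihood F test, with Benjamini-Hochberg adjustment over all genes, where 0% of the 17229 tested genes were called and the smallest adjusted p was 0.207. At an unadjusted p under 0.05 the count was also 0 of 9, against 9.44% of all tested genes. DESeq2 called 113 genes in all and 0 of the 9. In 8 of the 9 the log2 fold change lay below 0, where 51.8% of all tested genes did. The median of the 9 was -0.30, against -0.01 over all tested genes. Apart from Kit, these genes keep steady proportions across libraries, so their fold changes are not separate observations. Without EM-mGC-1, 5 of the 9 lay below 0, and without EM-mGC-3 the log2 fold change of Gdf9 was -0.61.

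Gdf9 averaged 177 ± 64.8 CPM in Con-mGC (SD, n = 5) and 149 ± 102 CPM in EM-mGC (SD, n = 5), a log2 fold change of -0.25 (standard error, SE, 0.46, adjusted p = 0.880 from edgeR with Benjamini-Hochberg adjustment). Bmp15 averaged 104 ± 34.6 and 87.6 ± 61.7 CPM, a log2 fold change of -0.24 (SE 0.47). Without EM-mGC-1 the log2 fold change was 0.01 for Gdf9 and 0.02 for Bmp15, so the direction of both rested on that library. Among the zona genes, Zp1 had a log2 fold change of -0.39 (SE 0.43), Zp2 of -0.34 (SE 0.41) and Zp3 of -0.22 (SE 0.42). Without EM-mGC-1 that of Zp3 was 0.04. Nlrp5 was at -0.43 (SE 0.38, adjusted p = 0.731 from edgeR with Benjamini-Hochberg adjustment), and Ooep was at -0.30 (SE 0.50). Without EM-mGC-1 the values were nearer to 0, with -0.16 for Zp1, -0.09 for Zp2, -0.19 for Nlrp5 and -0.03 for Ooep. Without EM-mGC-3 they were -0.68, -0.49, -0.51 and -0.60. Oosp1 was at 0.03 (SE 0.51), and without EM-mGC-3 it was at -0.55. Kit, measured with the least spread, averaged 38.7 ± 8.76 CPM in Con-mGC and 31.5 ± 8.18 CPM in EM-mGC, a log2 fold change of -0.30 (SE 0.20, adjusted p = 0.645 from edgeR with Benjamini-Hochberg adjustment), which was -0.20 without EM-mGC-1. For the other 8 tested genes the standard errors were 0.38 to 0.51, larger than the size of the log2 fold change itself for all but Nlrp5. For each of the 9 tested genes the groups overlapped, while 1.69% of all tested genes had groups that did not. Summed markers of other cells were set side by side between the groups as well, and no sum was tested. The summed theca and interstitial markers were at 743 to 968 CPM in Con-mGC and at 582 to 726 CPM in EM-mGC, and the endothelial ones at 178 to 203 CPM and at 99.1 to 177 CPM, without overlap in either case. For the marker counts that follow, 51.8% of all tested genes had a log2 fold change below 0, and 9.44% an unadjusted p under 0.05. Of the 8 theca and interstitial markers 5 had a log2 fold change below 0. Among these 5, 3 had groups that did not overlap and an unadjusted p under 0.05, with 0 called by edgeR. They were Col1a1, a collagen gene that averaged 395 CPM in Con-mGC and 202 CPM in EM-mGC, Gli1, a target of hedgehog signalling at 6.05 and 2.64 CPM, and Nr2f2, a nuclear receptor at 49.6 and 39.3 CPM. Their adjusted p from edgeR with Benjamini-Hochberg adjustment was 0.348, 0.270 and 0.418. Col1a1 carried most of the difference in the sum. Without it the list summed to 442 ± 53.9 CPM (SD, n = 5) and 459 ± 61.1 CPM (SD, n = 5) and the groups overlapped. The endothelial sums barely missed overlap, at 177.6 CPM in the lowest Con-mGC and 177.4 CPM in the highest EM-mGC library. All 8 endothelial markers had a log2 fold change below 0. Of these, 3 had an unadjusted p under 0.05 and 1 had groups that did not overlap, with 0 called by edgeR. The summed leukocyte markers went the other way, with 84.3 to 160 CPM in Con-mGC and 90.5 to 184 CPM in EM-mGC, and overlapped. Of the 8 leukocyte markers 6 had a log2 fold change above 0 and 2 below. At an unadjusted p under 0.05 there were 2, with 0 called by edgeR. Itgam, at 6.03 CPM on average in Con-mGC and 19.7 CPM in EM-mGC, and S100a8, a neutrophil gene at 1.88 and 20.3 CPM, differed most in that list and were named after their values were seen. Their adjusted p from edgeR with Benjamini-Hochberg adjustment was 0.376 and 0.348, with log2 fold changes of 1.70 and 3.43. Without Con-mGC-3, the Con-mGC library with the highest leukocyte sum, both genes were called. Their log2 fold changes were then 2.27 and 5.23, with an adjusted p of 0.0446 and 0.0124 from edgeR with Benjamini-Hochberg adjustment. With any other single library left out, neither gene was called. The lowest adjusted p from edgeR was then 0.199 for Itgam and 0.173 for S100a8, both without EM-mGC-2. The part of these cells in the comparison of the oocyte transcripts was not tested.

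**Figure D3:**
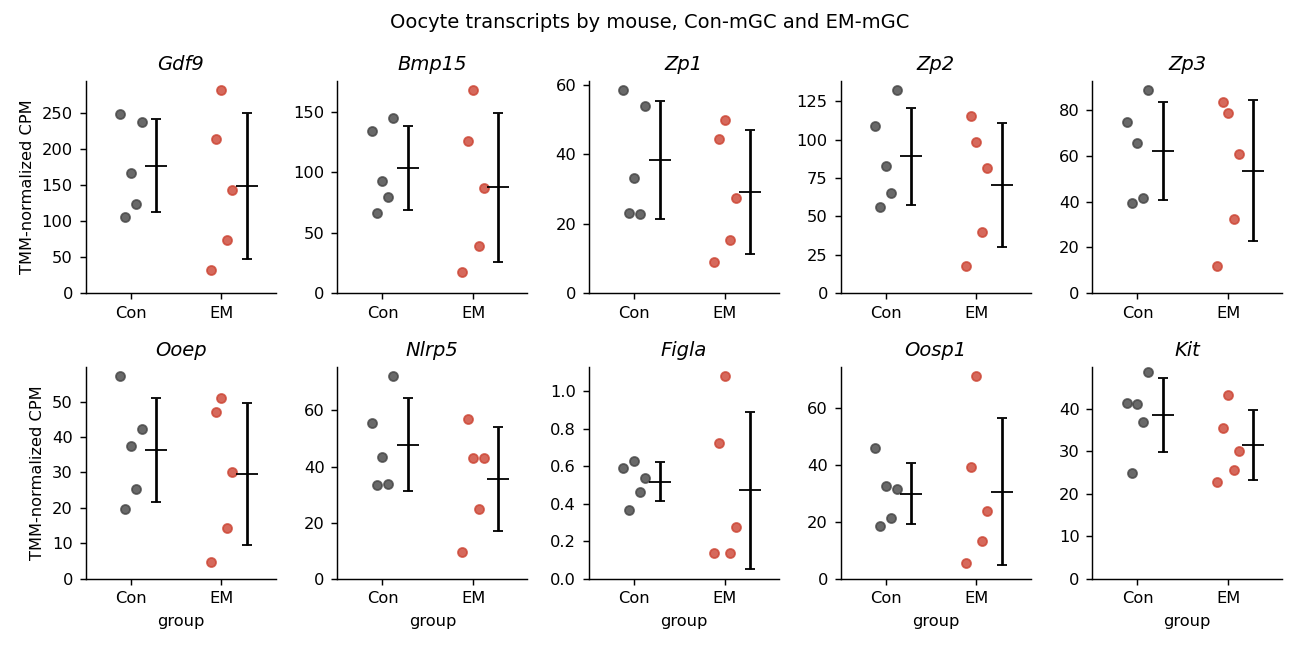
TMM-normalized CPM of each gene by mouse in Con-mGC (grey) and EM-mGC (red), with the mean and SD of each group (n = 5) to the right of its points, on axes that start at 0. The groups overlap in every panel, and for Gdf9 the EM-mGC libraries extend from 32.9 to 283 CPM.

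The spread of the members differed between the groups in its extent. Summed over the 10 genes, the highest Con-mGC library exceeded the lowest by 2.20-fold, and the highest EM-mGC library exceeded the lowest by 6.76-fold, or by 3.18-fold without EM-mGC-1. The difference in spread was not tested.

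A further 40 genes of oocytes and germ cells, from a list that holds none of the 10, had a like pattern. In the fresh libraries all 40 had reads, and Zbed3, Nlrp14, Padi6, Tle6 and Uchl1 were the most abundant. Nlrp14, a relative of Nlrp5, was at 177, 88.4, 138, 99.8 and 197 CPM in Con-mGC-1 to Con-mGC-5. In EM-mGC-1 to EM-mGC-5 it was at 22.1, 174, 179, 63.8 and 120 CPM. EM-mGC-1 was the lowest library, as for Gdf9, and Con-mGC-5 the highest. Padi6, a further gene of oocyte cytoplasmic structures, ranged from 25.0 CPM in EM-mGC-1 to 192 CPM in Con-mGC-1. Tle6, which encodes another protein of the maternal complex, varied far less, from 83.9 to 136 CPM. Of the 40, 37 were tested in EM-mGC against Con-mGC and 0 were called by edgeR, as were 0% of all tested genes, and DESeq2 called 0. At an unadjusted p under 0.05 there was 1, against 9.44% of all tested genes, and that gene, Taf4b, was singled out after its values were seen, with a log2 fold change of -0.29, or -0.20 without Con-mGC-5. Their log2 fold changes lay below 0 in 35 of 37, with a median of -0.27, where 51.8% of all tested genes lay below 0. Without EM-mGC-1 the count was 21, and without Con-mGC-1 it was 22.

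**Figure D4:**
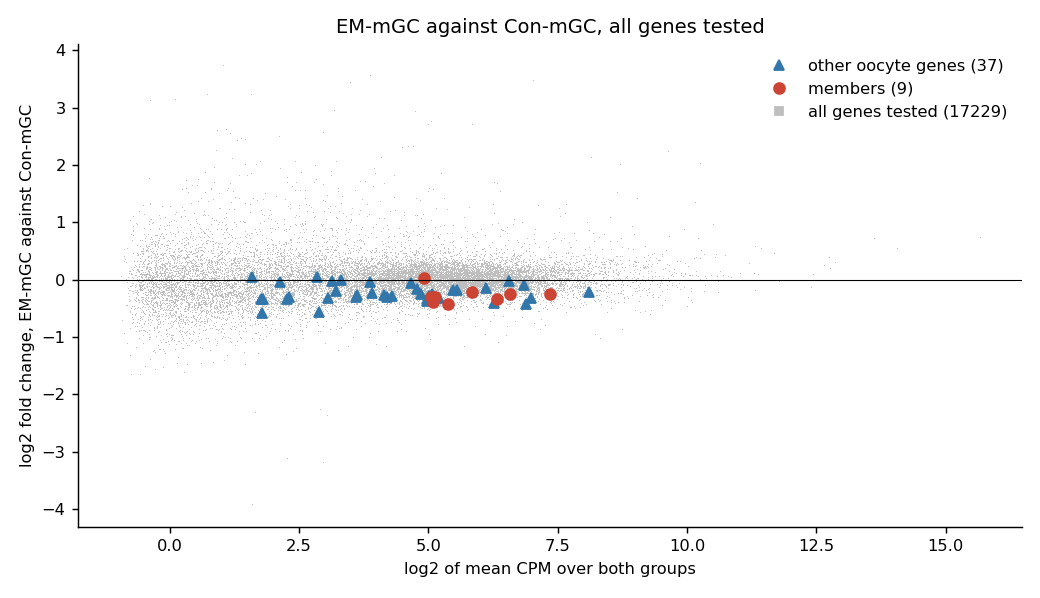
Log2 fold change of EM-mGC against Con-mGC for the 17229 tested genes (grey) against the log2 of the mean CPM over both groups, with the 9 tested members in red and 37 other oocyte genes in blue. The oocyte genes lie in a narrow band just below 0, within the cloud of all genes. Without EM-mGC-1, 5 of the 9 members lie below 0.

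The pattern over the 10 fresh libraries was then compared between genes by the Pearson correlation of log2(CPM + 0.5), as a description, since the points share library and depth. Each member was set against the mean of the other members without Kit. The correlation was 0.998 for Gdf9, 0.994 for Bmp15 and 0.990 for Ooep, and 0.936 for Nlrp5, 0.865 for Kit and 0.830 for Figla. Without EM-mGC-1 and EM-mGC-4, the libraries farthest from the median, it was 0.991 for Gdf9, 0.973 for Bmp15, 0.783 for Kit, 0.730 for Nlrp5 and 0.696 for Figla. Gdf9 and Bmp15 thus tracked the others also among the remaining 8 libraries, and Nlrp5 less closely. Of the 37 other oocyte genes that averaged at least 1 CPM, 32 had a correlation above 0.9 with the mean of the members without Kit, against 2.13% of all 14242 genes at that level. Without EM-mGC-1 and EM-mGC-4 the count was 23 of 37, against 1.34% of all genes. The lowest over the 10 libraries were Taf4b with 0.558 and Tle6 with 0.595, and without these 2 libraries Taf4b was at 0.0034 and Khdc3 at 0.445, while Tle6 was at 0.812.

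The 10 named genes most like the members, apart from the members themselves, were Elobl (0.997), Pramel13, Samd7, Trim60, Oas1c, Fbxw26, Fbxw15, Foxr1, Esrp1 and Oas1e (0.993). They averaged 1.87 CPM (Samd7) to 54.3 CPM (Elobl) over the fresh libraries. Pramel13, Oas1c, Oas1e, Fbxw15 and Fbxw26 belong to families with close copies in the genome, so their counts are uncertain where reads match several genes. Of these 10 genes, 5 were also among the top 10 without EM-mGC-3, and 6 without EM-mGC-1. The genes most like Kit alone were Slc45a3, Adamtsl1, Eif4e3, Pde3a and Bmt2, with correlations of 0.919 to 0.933. None of them is on the oocyte lists (0 of 5), and neither is any of the 10 genes most like the members. The lists hold only chosen genes, so absence from them does not tell whether oocytes make a transcript.

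In the cultured libraries 8 of the 10 oocyte genes were at or near 0 reads, and Kit had the most reads. The 10 genes together took 0.000421% to 0.000576% of the counts, and their summed level was 4.27, 5.73 and 5.72 CPM in PBS-1 to PBS-3 and 5.54, 5.67 and 5.07 CPM in EET-1 to EET-3. Most of that was Kit, with 68, 118 and 130 reads in PBS-1 to PBS-3 and 133, 123 and 107 reads in EET-1 to EET-3. Gdf9 had 20, 28 and 27 reads in PBS-1 to PBS-3 and 21, 24 and 11 reads in EET-1 to EET-3. Its neighbour Uqcrq was at 157 CPM in these libraries, and the part of that gene in the Gdf9 reads was not tested. Bmp15 had 1 read in PBS-1 and 0 in the other 5 libraries. Zp1 had 1 read in EET-1 only, Zp2 had 3 reads in all and Zp3 had 4. Ooep had 1 read in PBS-1 and 8, 2 and 1 reads in EET-1 to EET-3. Nlrp5, Figla and Oosp1 had 0 reads in all 6 libraries, and a count of 0 over the 3 libraries of a group allows up to 0.0400 CPM in PBS and 0.0377 CPM in EET. Apart from Gdf9 and Kit, no member exceeded 8 reads in a cultured library.

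Set side by side with the EM-mGC libraries, pooled Gdf9 reads were 166-fold higher in the fresh cells than in PBS and EET together (95% interval from counting error only, 140 to 199). The ratio was 1980 for Zp3 (773 to 7273), which rests on 4 cultured reads, and 361 for Ooep (206 to 700). The Ooep ratio rests on 12 cultured reads, 8 of them in EET-1. Against PBS alone, with 1 read, it was 2103 (377 to 83112). Against EET alone, with 11 reads, it was 203 (113 to 407). Against the floor of 3 reads over the 6 libraries, Nlrp5 was at least 1772-fold, Oosp1 at least 1466-fold and Figla at least 22.6-fold higher. Bmp15, with 1 cultured read, had a ratio of 12772 with an interval of 2291 to 504537. Kit, by contrast, was 6.87-fold higher (6.30 to 7.50). Both tables were normalized separately and the cells came from different mice, so culture and experiment cannot be told apart, and the ratios carry no test. Reads from PCR copies are not independent molecules, and intervals and floors cover counting error only.

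Kit's difference from the rest had counterparts among the other oocyte genes. Of the 40, 17 had 0 reads in all 6 cultured libraries, among them Padi6, and Nlrp14 had 1 read. By contrast 7 had over 100 reads, namely Tle6, Zbed3, Uchl1, Cpeb1, Gpr3, Dnmt3l and Taf4b, and these were chosen after their values were seen. Uchl1, a ubiquitin hydrolase that neurons and germ cells carry, was the reverse of the oocyte pattern, with a pooled level of 332 CPM in culture against 90.4 CPM in EM-mGC. Tle6 was at 22.2 CPM in culture against 108 CPM in EM-mGC, and Zbed3 at 32.7 against 241 CPM. Mast cells carry KIT as well. Of 8 mast cell markers Hdc, which makes histamine, was the most abundant in every library, and Fcer1a, a chain of the mast cell IgE receptor, was at 0 in 9 of 10 fresh and in all 6 cultured libraries. The summed mast cell markers were at 26.7 to 67.7 CPM in fresh and 1.43 to 2.35 CPM in cultured libraries, nearly all of it Hdc, which averaged 35.5 CPM in Con-mGC and 44.2 CPM in EM-mGC. The other 7 markers were near the floor, each with a group mean of at most 1.03 CPM (Mcpt4 in Con-mGC). Cpa3, a mast cell protease, averaged 0.873 CPM in Con-mGC and 0.112 CPM in EM-mGC. The part of mast cells in the Kit level was not tested.

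**Figure D5:**
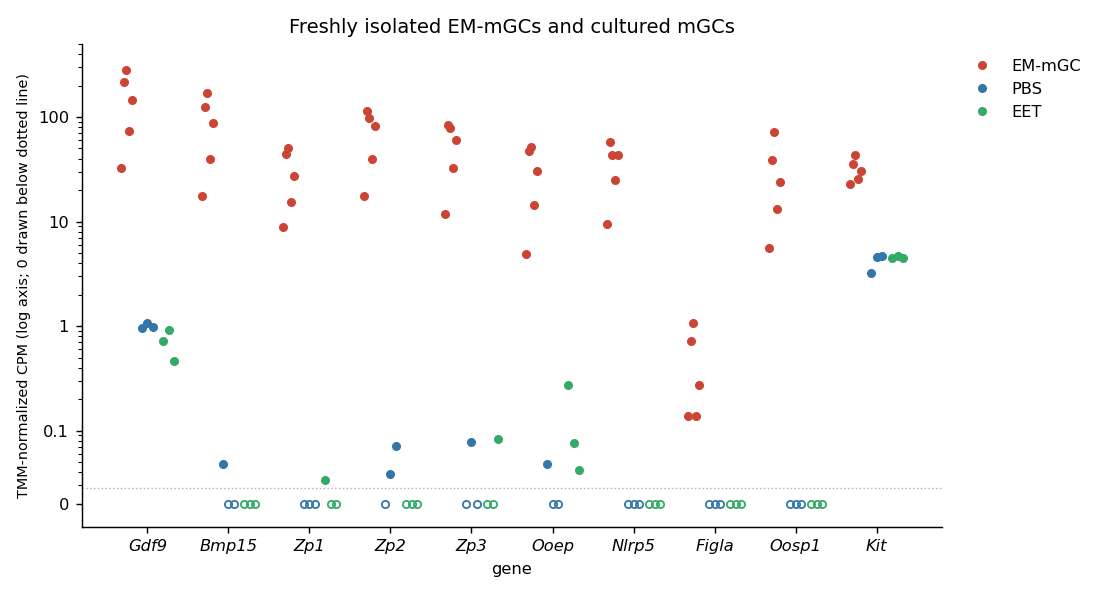
TMM-normalized CPM of the 10 genes in the 5 EM-mGC, 3 PBS and 3 EET libraries on a log axis, with open points below the dotted line for 0 reads. Gdf9 and Kit are the members with reads in all 6 cultured libraries, and Kit keeps the highest level there.

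Within the cultured experiment, 14,15-EET was compared with PBS. Only Gdf9 and Kit had enough reads to be tested, and 0 of the 2 were called by edgeR, against 184 of 15050 tested genes (1.22%). At an unadjusted p under 0.05 the count was also 0 of 2, against 12.4% of all tested genes. DESeq2 called 0 but gave no adjusted p for Gdf9, so its count rests on Kit. Gdf9 was at 0.949, 1.08 and 0.971 CPM in PBS-1 to PBS-3 and at 0.714, 0.914 and 0.461 CPM in EET-1 to EET-3. Every EET library thus lay below every PBS library, and 17.6% of all tested genes had groups that did not overlap. Its log2 fold change was -0.51 (SE 0.30, adjusted p = 0.512 from edgeR with Benjamini-Hochberg adjustment), and it rests on 11 to 28 reads per library. Without EET-3, the library with 11 reads, it was at -0.30, and without EET-2 at -0.74. Kit had a log2 fold change of 0.12 (SE 0.16, adjusted p = 0.779 from edgeR with Benjamini-Hochberg adjustment), and its groups overlapped. Without PBS-1 it was at -0.01. Of the 2 genes, 1 lay below 0, where 49.6% of all tested genes did. Of the other oocyte genes 7 were tested and 0 were called by edgeR, against 1.22% of all tested genes, or by DESeq2, and 1 had an unadjusted p under 0.05, against 12.4%. That gene, Gpr3, a receptor that keeps oocytes in meiotic arrest, was singled out after its values were seen, with a log2 fold change of -0.58 (SE 0.19, adjusted p = 0.196 from edgeR with Benjamini-Hochberg adjustment).

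The receptors and response genes of the oocyte's factors in granulosa cells were followed as a list of 25 genes (Amh is also a granulosa cell marker here), and all were tested in the fresh cells. Bmpr2, the type 2 receptor that GDF9 and BMP15 share, was at 506, 574, 582, 731 and 642 CPM in Con-mGC-1 to Con-mGC-5. In EM-mGC-1 to EM-mGC-5 it was at 421, 800, 663, 331 and 485 CPM. Its lowest libraries, EM-mGC-4 and EM-mGC-1, were also the 2 lowest for most of the oocyte genes. Its log2 fold change was -0.17 (SE 0.22), with -0.35 without EM-mGC-2 and -0.03 without EM-mGC-4. Tgfbr1, a type 1 receptor of GDF9, averaged 207 CPM in Con-mGC and 251 CPM in EM-mGC, and its log2 fold change of 0.28 (SE 0.15) did not pass the test. Bmpr1b, a type 1 receptor of BMP15, was at -0.09 (SE 0.20), and at 0.04 without EM-mGC-4. Kitl, the ligand of KIT, had a log2 fold change of 0.01 (SE 0.37), with 16.7 CPM in EM-mGC-1 and 61.6 to 136 CPM in the other 9 libraries. Without EM-mGC-1 it was at 0.26, and without EM-mGC-2 at -0.34. In the list 18 genes had a positive and 7 a negative log2 fold change, with a median of 0.09, where 51.8% of all tested genes were negative, and 0 of 25 were called by edgeR or DESeq2. The 3 genes with an unadjusted p under 0.05, against 9.44% of all tested genes, were Id1 (0.41), Id2 (0.64) and Slc38a3 (-0.41), given as log2 fold changes and named after their values were seen. Without EM-mGC-4 that of Id2 was 0.36. Id1 and Id2 are targets of BMP signalling, and Slc38a3 is an amino acid transporter that oocytes are known to induce in cumulus cells.

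In the cultured libraries 24 of the 25 were tested (all but Amh). In EET against PBS, edgeR called 0 of the 24, against 1.22% of all tested genes. At an unadjusted p under 0.05 there were 7 of the 24, a larger share than the 12.4% of all tested genes. Id2 lay nearest to the threshold, with 92.2, 89.2 and 82.6 CPM in PBS-1 to PBS-3 and 100, 108 and 105 CPM in EET-1 to EET-3. Every EET library was higher, where 17.6% of all tested genes had groups that did not overlap, and the log2 fold change was 0.25 (SE 0.06, adjusted p = 0.0548 from edgeR with Benjamini-Hochberg adjustment). DESeq2 called 2 genes of the list, Id2 at 0.25 and Grem1, a secreted BMP antagonist, at -0.36 on the log2 scale. With the replicate number as a block, edgeR called Id2 (adjusted p = 0.0289 from edgeR with Benjamini-Hochberg adjustment), but the numbers are not shown to mark pairs. Bmpr2 was at 144 CPM in both groups, and Kitl had a log2 fold change of -0.17 (SE 0.08, adjusted p = 0.390 from edgeR with Benjamini-Hochberg adjustment), or -0.10 without EET-1.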

How the data were processed

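The data are RNA-seq of 16 mouse granulosa cell libraries in 4 groups, from stranded poly(A) libraries sequenced with paired 150 bp reads. The authors deposited raw read counts per Ensembl gene in a table for each experiment, per the file headers. The submitters' processing notes list fastp, HISAT2, StringTie and GRCm39 without versions or roles. The strand setting, annotation release and treatment of multiply matching reads are not given in the sources used here. No column was left unused (0 columns). The analysis used R 4.3.3 and edgeR 4.0.16, each experiment in its own fit, with filterByExpr, TMM, quasi-likelihood tests and Benjamini-Hochberg adjusted p-values over all genes at 0.05. Alternatives were DESeq2 1.42.0, RLE factors, other filters, the replicate number as a block and leaving out each library. CPM used the TMM-scaled library sizes of that fit. Exon length came from GRCm38 transcripts. Members and lists were chosen with earlier results of these data known. All 10 members are named, with the 5 most abundant other oocyte genes, called genes, 4 receptors and ligands (Bmpr2, Tgfbr1, Bmpr1b and Kitl), 10 genes most like the members and 5 most like Kit, leaving out predicted symbols and genes under 1 CPM. On simulated counts with 200 genes changed by 2 on the log2 scale, far more than the members' fold changes, edgeR recovered 192 in the fresh design with 7 false calls and 200 in the cultured one with 18. No library was a repeat of another within its group (chi-square per degree of freedom of at least 2.79). The methods call the cultured libraries paired but do not tie the numbers to mice.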

Additional observations from a re-analysis of the deposited data

Results flagged for a closer look

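In 4 of 56 groups of values examined, 1 library lay far from the others of its group, where chance gives about 1 in 20 groups. EM-mGC-3 accounted for 3 of them. Its mitochondrial transcripts took 21.8% of the counts, against 11.1% in the next EM-mGC library. It had 0.347 Zp2 reads per Gdf9 read, where the nearest EM-mGC library had 0.532. It had 0.252 Oosp1 reads per Gdf9 read, where the nearest had 0.183. The remaining one was Con-mGC-3, in which the leukocyte markers summed to 160 CPM, against 104 CPM in the next Con-mGC library.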

How the results depend on the processing

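In no alternative that tested them was an oocyte gene called. In the fresh cells 9 of the 10 members were tested, and 10 without a filter, with 35 to 40 of the other 40. In culture only 2 members and 7 other genes were tested, and 7 and 23 without a filter. Over all genes, the count of called genes in EM-mGC against Con-mGC was 0, but 113 with DESeq2, 4 without a filter and 2 with the replicate block; leaving out each library in turn gave 0 to 46, with 46 without Con-mGC-3 and 1 without EM-mGC-1. In EET against PBS it was 184, but 341 with DESeq2, 662 without a filter, 341 with the replicate block and 48 to 436 with a library left out (436 without PBS-2, 350 without PBS-1, 122 without EET-1, 61 without EET-2 and 48 without EET-3). The count of receptor and response genes called in EET against PBS rose from 0 to 2 with DESeq2, 4 without a filter, 1 with the replicate block (Id2, adjusted p = 0.0289 from edgeR) and up to 4 with a library left out (0 to 4; 4 without PBS-1 and 1 without PBS-2). With a library left out, the log2 fold change in EM-mGC against Con-mGC ranged from -0.61 to 0.012 for Gdf9, from -0.62 to 0.020 for Bmp15 and from -0.44 to 0.041 for Zp3, each above 0 only without EM-mGC-1. That of Oosp1 was -0.28 with the replicate block and ranged from -0.55 to 0.30, below 0 without Con-mGC-2, Con-mGC-4, EM-mGC-2 or EM-mGC-3. That of Kit in EET against PBS ranged from -0.014 to 0.22. The adjusted p of Gdf9 ranged from 0.725 to 0.994 over the alternatives in the fresh cells and from 0.430 to 0.850 in culture, where DESeq2 gave none. Counts of members with a log2 fold change below 0, added after seeing the data, ran from 5 to 9 in the fresh cells. Of the 10 genes most like the members, 5 were shared without EM-mGC-3 and 6 without EM-mGC-1. The cause of these shifts was not tested.

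Same-numbered libraries deviated from their group means with correlations of -0.28, -0.20, 0.10, -0.07 and 0.20 in the fresh experiment, whose mice differ, and of 0.09, 0.16 and -0.04 in culture, so the libraries do not show that the numbers mark pairs. In culture, libraries 1 and 2 correlated best with their own number and libraries 3 did not. The replicate block called no member. In the cultured libraries 8 of the 10 genes had at most 8 reads per library, which limits the precision of their values.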
